A study of Mus musculus with 4 samples.

Results

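Transcripts of 10 genes of Hedgehog signalling and ventral neural patterning were followed in mouse embryos with a mutant Btaf1 gene. The genes were Shh, Ptch1, Hhip, Gli1, Gli2, Gli3, Foxa2, Nkx6-1, Nkx2-2 and Olig2. Every probe that the array files assign to one of these names was taken, which gave 15 probes for 10 genes out of 21389 named genes on the array. RNA of whole Btaf1-/- embryos carrying V1330M, a point mutation induced with the mutagen ENU, was hybridised against RNA of whole Btaf1+/+ embryos on 4 two-colour Agilent arrays, with 300 ng of RNA per dye. In the age_matched set, pools were built to hold as many litter mates as possible and could differ by up to 5 somites. In the stage_matched set, mutant and wild-type pools were paired by somite number. Embryos had 3 to 5 somites where that could be had. All animals were hybrids of C57BL/6J and FVB/NJ, with 50 to 90% FVB. Each set was 1 mutant pool against 1 wild-type pool, measured once with the mutant in Cy5 and once with the mutant in Cy3, so each genotype had 2 pools (n = 2) and the dye-exchanged arrays of a set were averaged. How many embryos went into a pool, and whether any embryo was used in both sets, is not given in the sources used here.

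Sonic hedgehog, the protein made from Shh, is secreted by the notochord and the floor plate below and in the ventral neural tube. It binds the receptor Patched1, which otherwise holds the membrane protein Smoothened inactive, and the signal ends in the GLI transcription factors: GLI1 and GLI2 act mainly as activators, and GLI3 mainly as a repressor that is trimmed in the absence of ligand. Ptch1, Hhip and Gli1 are themselves induced by the signal and serve as readouts of it, while Foxa2, Nkx2-2, Olig2 and Nkx6-1 are switched on in the ventral neural tube at different ligand exposures.

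The outcome over these 10 genes was 1 change. Nkx6-1, a homeodomain transcription factor of the ventral neural tube, fell in the mutant pools, with 1.38-fold lower RNA (log2 ratio -0.46 ± 0.064, SD between sets, n = 2, limma adjusted p = 0.0337). Its call rests on a single probe and was lost in 4 of 11 alternative settings. Shh had the highest mean ratio of the group, 0.33 ± 0.046 on the log2 scale, and missed the threshold of 0.05 (adjusted p = 0.0813). Ptch1, Hhip and Gli1, the readout genes, had mean log2 ratios of -0.11, 0.13 and -0.047, none of them past the threshold. Their signal was low, with intensities of 108 to 133, 119 to 154 and 124 to 163. Probes not above background had medians of 75.1 to 76.1, and ratios this close to that level are pulled towards 0. Nkx2-2 and Olig2 were too dim to be tested. Of 13599 genes tested on the array, 4.91% were called, 2.14% higher and 2.77% lower in mutant, against 0 higher and 1 lower of the 8 tested genes of this group. Counted by probe, 8 of the 15 probes were tested and 1 of these 8 was called, while 4.81% of all 21940 tested probes were called, 1.66% higher and 3.14% lower in mutant. The 8 tested genes had a median log2 ratio of 0.029, and the median over all genes tested was 0.018. With 8 genes, a share cannot be set apart from that background.

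The probes matter for reading these values, since several genes have 1 probe that gave signal and another that did not. All 15 probes are 60 bases long, and their positions below are those of the array files on mm9 (NCBI37), without exon or untranslated region, since annotation of this build was not used here. The first 30 bases are shown for Nkx6-1, the gene that was called, for Shh, and for both probes of Gli2, and the last 30 bases for the bright probe of Gli3, where capitals mark the letters AATAAA, the usual polyadenylation signal.
Nkx6-1, chr5:102088323-102088382, minus strand: cccccagtatcctggctgctcgccgggcct
Shh, chr5:28783983-28784042, minus strand: aatttattattgtgtgaactgtactcacag
Gli2, tested probe, chr1:120731255-120731314, minus strand: aggcattgattcttggactttgaggaactc
Gli2, dim probe, chr1:120732839-120732898, minus strand: caagccatggtcacatcagccaaccaagag
Gli3, tested probe, chr13:15821502-15821561, plus strand: tcctgcagatgtgtaaAATAAActgtgttc
Gli3, dim probe, first 30 bases, chr13:15818729-15818787, plus strand: tcaagtatattccttttatggaaaaggact
Only 1 of the 15 probes, the bright one of Gli3, held AATAAA. The 2 Gli3 probes start 2773 bases apart and the 2 Gli2 probes 1584 bases apart, and in each pair the probe farther along in the direction of transcription was the one with signal. The same 5′ to 3′ order was not seen for Ptch1 and Hhip, whose dim probes lie 2609 and 5485 bases downstream of the tested ones. GC content over the 15 probes ran between 21.7% and 55.0%, the lowest being the dim probe of Ptch1.

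Values below are normalised intensities per dye channel and log2 ratios of mutant over wild type, with the arrays always in the order age_matched with the mutant in Cy5, age_matched with the mutant in Cy3, stage_matched with the mutant in Cy5 and stage_matched with the mutant in Cy3. The median intensity of probes not above background was between 75.1 and 76.1 on every array and in both genotypes. A ratio of a probe close to that level is pulled towards 0, because a constant of 50 was added to all signals before taking logs. In RNA of whole embryos, fewer cells of a type and less RNA per cell cannot be told apart. All 8 tested probes were well above background in both channels on all 4 arrays.

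**Figure D1:**
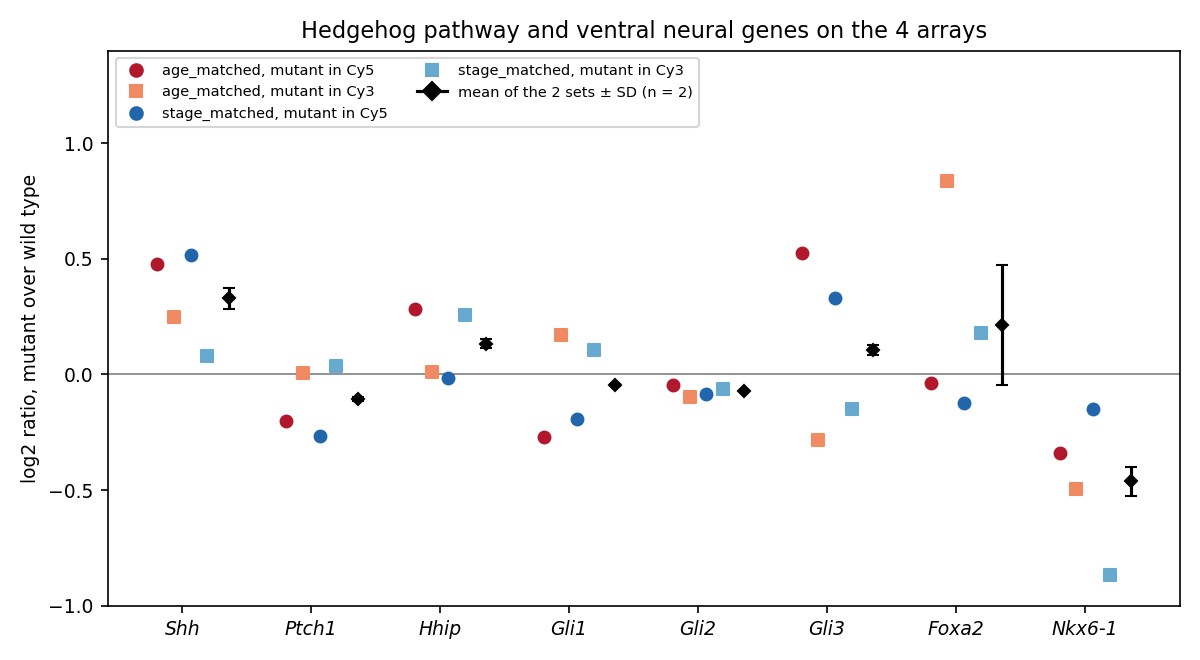
Log2 ratio of mutant over wild type (vertical axis) of the 8 tested genes on each of the 4 arrays, with the mean of the age_matched and stage_matched sets and the SD between them (black diamonds, n = 2). All 4 points of Shh lie above 0 and all 4 of Nkx6-1 and of Gli2 below it, while the points of Ptch1, Gli1, Gli3 and Foxa2 change sign with the dye of the mutant.

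Shh, the ligand, gave 506, 486, 514 and 447 in mutant pools, against 364, 409.9, 359 and 423 in wild-type pools. The lowest mutant value lay above the highest wild-type value on this probe. Within a set, however, the dye-exchanged values are repeated readings of the same pools. How often such a separation occurs among all tested genes was not counted, so it is a description and adds nothing to the test. The log2 ratios were 0.48, 0.25, 0.52 and 0.080, higher when the mutant was in Cy5 in both sets, and the spot-to-spot SD over the 8 to 10 spots used on an array was 0.068 to 0.18. The mean of 0.33 had a 95% confidence interval of 0.12 to 0.54 and an unadjusted p of 0.0068 by limma, which rose to 0.0813 after adjustment over 21940 probes. Leaving out the stage_matched array with the mutant in Cy3, the one with the smallest ratio, gave 0.44 with an adjusted p of 0.0464, while leaving out any other array gave 0.22 to 0.39 with an adjusted p between 0.125 and 0.509.

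Ptch1, the Hedgehog receptor, gave 108, 108, 111 and 124 in mutant pools, against 125, 108, 133 and 120.4 in wild-type pools, which overlap. Its log2 ratios were -0.20, 0.0042, -0.26 and 0.038, negative only on the arrays with the mutant in Cy5. The mean was -0.11 ± 0.010 (95% confidence interval -0.32 to 0.10, adjusted p = 0.544). The second Ptch1 probe (chr13:63610298-63610357) was above background in mutant on 1 array and in wild type on 0 arrays, and was not tested.

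Hhip, which encodes a membrane protein that captures the ligand, gave 149.9, 154, 121 and 143 in mutant pools, against 123, 152, 123 and 119 in wild-type pools. The log2 ratios were 0.28, 0.011, -0.016 and 0.26. The ranges overlap and the high ratios came from opposite dye orientations in the 2 sets. The mean of 0.13 ± 0.019 had an interval of -0.076 to 0.34 (adjusted p = 0.433). Its other probe (chr8:82490729-82490788) was above background on 0 arrays in either genotype.

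Gli1, the activator whose transcription follows the signal most directly, gave 124, 163, 139 and 150.3 in mutant pools, against 150.2, 145, 159.5 and 139.7 in wild-type pools. Ratios of -0.27, 0.17, -0.19 and 0.11 changed sign with the dye in both sets. The spread over the 7 to 10 spots used on an array was smaller than this swing, with an SD of 0.053 to 0.092. The dye-balanced mean was -0.047 ± 0.0036, with an interval of -0.26 to 0.16 and an adjusted p of 0.805.

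Gli2, the main activator in the early response, had the most even ratios of the group, -0.047, -0.099, -0.084 and -0.062, from intensities of 547, 646, 535 and 592 in mutant pools and 565, 691, 567 and 618 in wild-type pools. The sign was negative on all 4 arrays, but the size was small and the genotypes overlapped. The mean of -0.073 did not pass the threshold (interval -0.28 to 0.14, adjusted p = 0.692). The sets differed by 0.00013 on the log2 scale, and the width of the interval comes from the moderated error that limma shares across probes.

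Gli3, the main repressor, gave 3853, 3249, 3455 and 2748 in mutant pools, against 2679, 3949, 2748 and 3051 in wild-type pools. The log2 ratios of 0.52, -0.28, 0.33 and -0.15 followed the dye: the Cy5 channel was brighter than Cy3 on every array, whichever genotype it held. The dye part of the ratio, defined as the difference between orientations divided by 2, was 0.32, larger in size than that of 93.7% of tested probes. What remained for genotype was 0.11 ± 0.022 (interval -0.10 to 0.32, adjusted p = 0.546). The dim Gli3 probe, above background on 0 arrays, had ratios between -0.10 and 0.012.

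Foxa2, a forkhead factor of the notochord, floor plate and definitive endoderm, gave 3089, 4484, 2881 and 3225 in mutant pools, against 3174, 2513, 3134 and 2849.5 in wild-type pools. The ratios were -0.039, 0.84, -0.12 and 0.18. The spot-to-spot SD of 0.096 to 0.18 holds only the spread within an array, not that between arrays. The largest ratio, 0.84, came from the age_matched array with the mutant in Cy3. The mean was 0.21 ± 0.26 (interval -0.044 to 0.47, adjusted p = 0.302), and without that array it was -0.0052. The age_matched mean of 0.40 and the stage_matched mean of 0.029 differed by 0.37 (interval 0.023 to 0.72), which did not pass after adjustment (limma adjusted p = 0.365).

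Nkx6-1 is needed for motor neuron and V2 interneuron progenitors, and later also in the pancreas. Its single probe, spotted once per array, gave 315, 209, 374 and 289 in mutant pools, against 398, 295, 415 and 528 in wild-type pools. The mutant value was the lower one on each array, although the ranges of the genotypes overlap across arrays. The log2 ratios were -0.34, -0.50, -0.15 and -0.87, with means of -0.42 in the age_matched and -0.51 in the stage_matched set. The set difference of 0.091 had an interval of -0.25 to 0.44 (adjusted p = 0.923). The mean of -0.46 (95% confidence interval -0.68 to -0.25) lay beyond the absolute ratio of 95.6% of tested genes. The mean was -0.50 without the age_matched array with the mutant in Cy5 and -0.42 without its dye exchange. It was -0.28 without the stage_matched array with the mutant in Cy3 and -0.64 without the one with the mutant in Cy5. Only in the last of these fits did the call hold, and each leaves 1 set without its dye exchange. The call was also lost when background was not corrected (-0.39, adjusted p = 0.0821), and the sign was negative in every one of the 11 alternative settings.

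**Figure D2:**
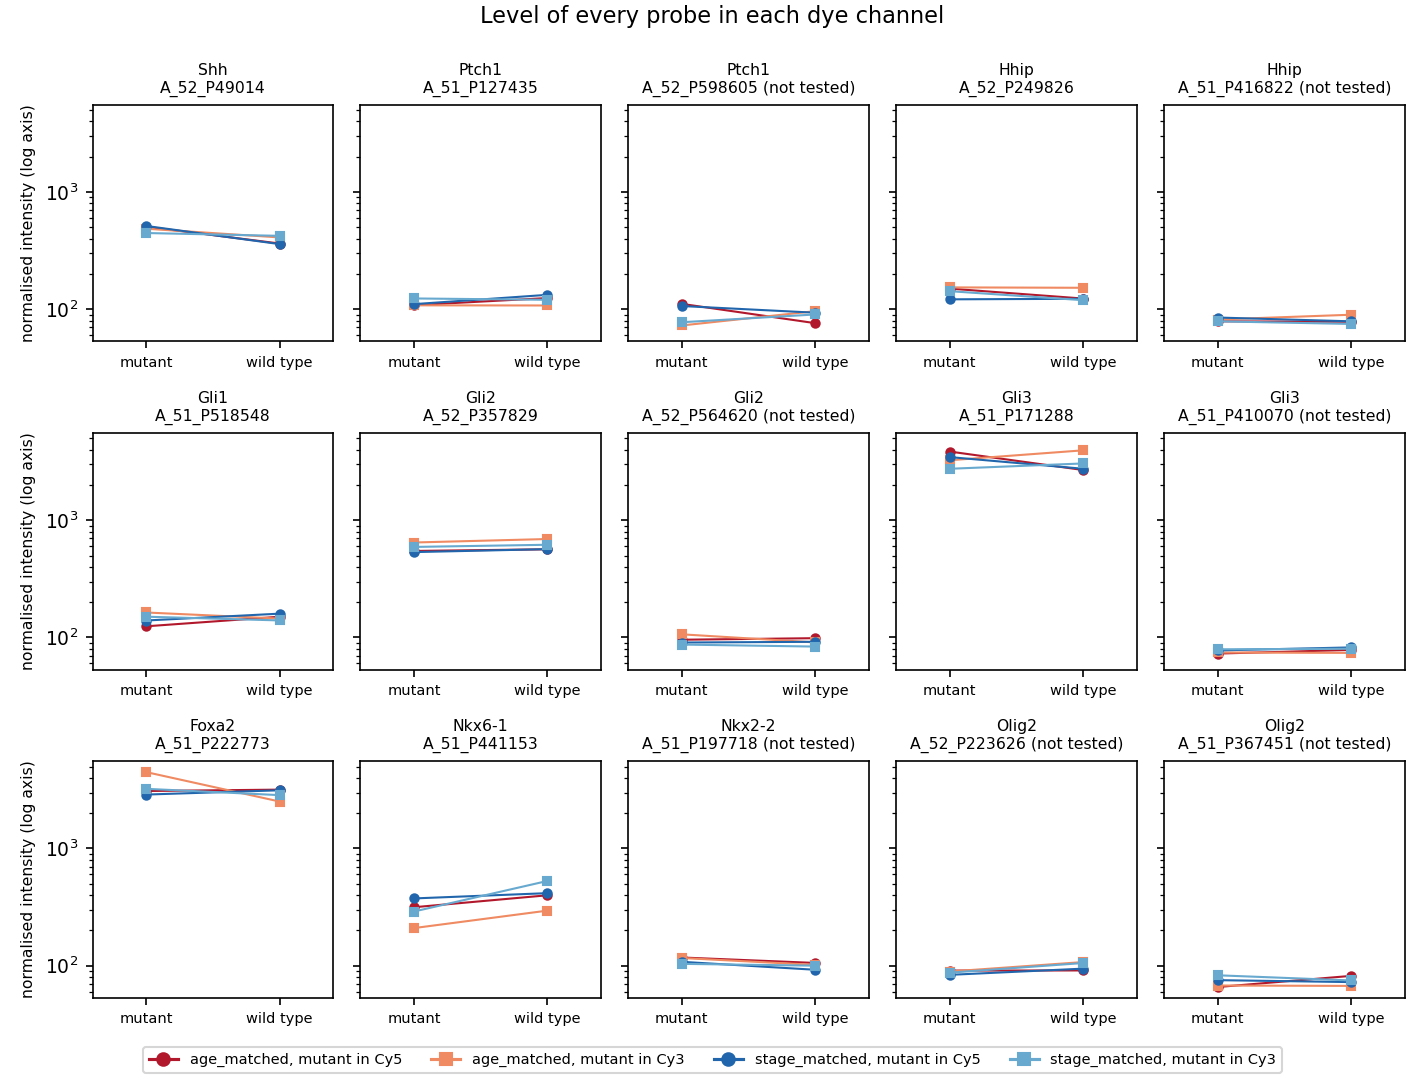
Normalised intensity (vertical log axis) of each of the 15 probes in the mutant and wild-type channels, with 1 line per array. The lines of Nkx6-1 run upward to wild type on all 4 arrays and those of Shh downward, and the 7 probes that were not tested lie near the level of probes without signal.

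Nkx2-2, a factor of the V3 progenitors next to the floor plate, was above background in mutant pools on 2 arrays and in wild-type pools on 3, and so was not tested. Its intensities were 117, 116, 108 and 104 in mutant pools, against 105.4, 101, 92.2 and 99.9 in wild-type pools, with log2 ratios of 0.15, 0.20, 0.23 and 0.052. The ratios were positive on all 4 arrays, close to background in both genotypes, and a fit without the filter on dim probes gave 0.16 ± 0.026 with an adjusted p of 0.314.

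Olig2, which marks the motor neuron progenitors just dorsal to the Nkx2-2 domain, was measured by 2 probes. The first (chr16:91228470-91228529) was above background in mutant on 0 arrays and in wild type on 2, and gave ratios of -0.0037, -0.27, -0.18 and -0.27. Without the filter its mean was -0.18 ± 0.063 (adjusted p = 0.262). The second (chr16:91227115-91227174), on 0 arrays above background, had ratios between -0.32 and 0.15. A difference in Nkx2-2 or Olig2 was thus not detectable at this signal.

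Among the 8 tested genes, 3 had 1 sign on all 4 arrays (Shh, Gli2 and Nkx6-1), against 28.5% of all tested genes. In 4 of the 8 (Ptch1, Gli1, Gli3 and Foxa2) the sign instead followed the dye of the mutant on all 4 arrays, against 21.1% of all tested genes. The dye parts were -0.13 for Ptch1, -0.19 for Gli1, 0.32 for Gli3 and -0.29 for Foxa2, where the median size over all tested probes was 0.10. For these 4 genes the dye part was larger in size than the genotype part. That follows from a sign that changes with the dye on all 4 arrays and is no separate result. None of the 8 differed between the age_matched and stage_matched sets after adjustment (0 of 8, against 2.11% of all genes tested and 2.31% of all probes tested). At unadjusted p under 0.05, 2 of the 8 passed for genotype, Shh and Nkx6-1, against 22.7% of all genes tested.

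**Figure D3:**
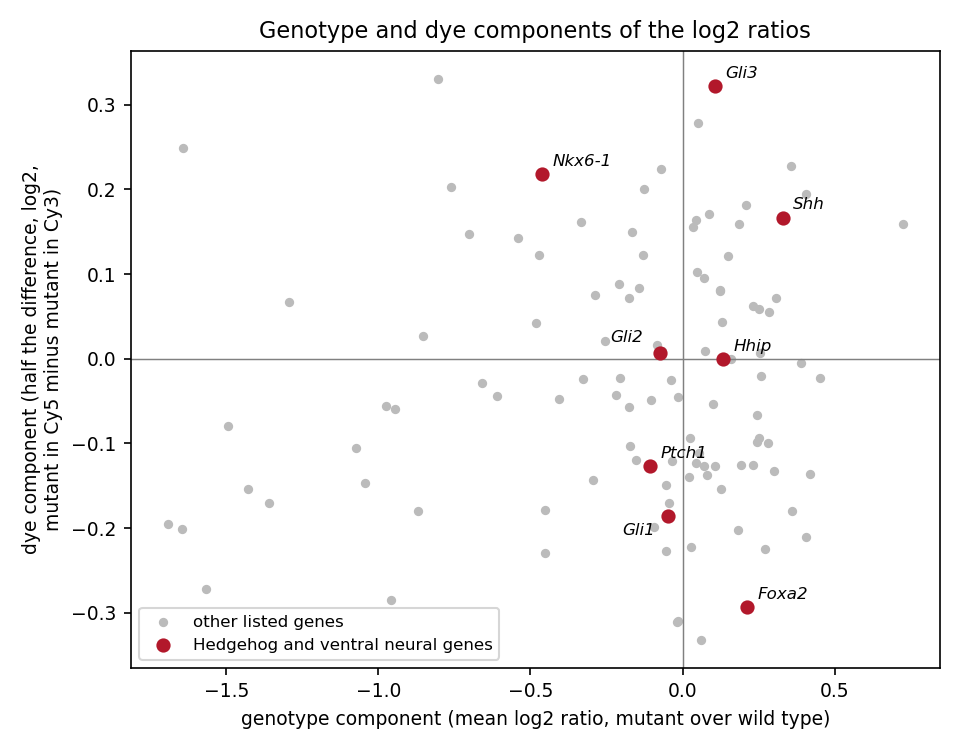
Genotype part (horizontal axis, mean log2 ratio of mutant over wild type) and dye part (vertical axis, log2) of the 8 genes in red and of the other listed genes in grey. Nkx6-1 lies farthest left of the red points at -0.46, and Gli3 and Foxa2, at 0.11 and 0.21 on the horizontal axis, have dye parts of 0.32 and -0.29.

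The other genes of the pathway, 55 in all, were read from the same fit by their brightest probe. Of these 48 were tested, 1 rose and 1 fell, and 46 did not pass, with a median log2 ratio of 0.048. The share called is close to the 4.91% of all genes tested, so the 2 genes are described singly and not as a change of the pathway. B9d1, a protein of the transition zone at the base of the primary cilium, rose by 0.42 ± 0.077 on the log2 scale, with ratios of 0.37, 0.58, 0.20 and 0.53 (limma adjusted p = 0.0450). Arl13b, a small GTPase of the ciliary membrane, fell, with ratios of -0.37, -0.53, -0.32 and -0.66 and a mean of -0.47 ± 0.027 (adjusted p = 0.0305). Both had 1 sign on every array, but they were picked by their calls on these same arrays, so this adds nothing to the test. Arl13b had 2 more tested probes, 1 with -0.56 (adjusted p = 0.0212) and 1 with 0.097 (adjusted p = 0.582), so its probes disagreed. The B9d1 call was lost without any 1 of the 4 arrays, at 0.34 to 0.50 and adjusted p of 0.0542 to 0.294. The Arl13b call was lost without the age_matched array with the mutant in Cy5 (-0.51, adjusted p = 0.249), without the age_matched array with the mutant in Cy3 (-0.43, adjusted p = 0.0942) and without the stage_matched array with the mutant in Cy3 (-0.39, adjusted p = 0.0672). Without background correction both were lost (adjusted p = 0.0781 for B9d1 and 0.0723 for Arl13b).

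By role, 0 of 5 tested genes of ligands and ligand release passed. Scube1, a secreted protein of the family that helps release the ligand, was the farthest from 0 at -0.45 ± 0.21 (adjusted p = 0.0518), and its other probe gave -0.13. None of the 6 receptors and co-receptors passed (0 of 6), Smo among them at -0.017 and Boc at -0.29. Of the 19 intracellular regulators 0 passed and 15 had a positive mean, with Spop, an adaptor that targets GLI proteins for degradation, at -0.48 ± 0.34 (adjusted p = 0.0667) and Rab23, a small GTPase that restrains the pathway, at 0.36 ± 0.10 (adjusted p = 0.0701). The 2 other tested probes of Rab23 gave 0.055 and 0.30. Sufu, which holds GLI proteins inactive in the cytoplasm, stood at 0.074. The 13 tested genes of ciliary transport and the transition zone held both calls named above and 11 genes that did not pass. Dync2h1, a motor of ciliary transport named after its values were seen, had 0.28 on its brightest probe and 5 more tested probes between -0.51 and 0.25, of which the one at -0.51 passed (adjusted p = 0.0492). The 5 tested genes listed as other targets had 0 calls. Pax1, a sclerotome factor, was the largest in size among them at -0.41 ± 0.32 (adjusted p = 0.0958), with -0.67 and -0.60 in the age_matched and -0.24 and -0.12 in the stage_matched set. From the authors' deposited log ratios its mean was -1.02 (adjusted p = 0.0315).

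**Figure D4:**
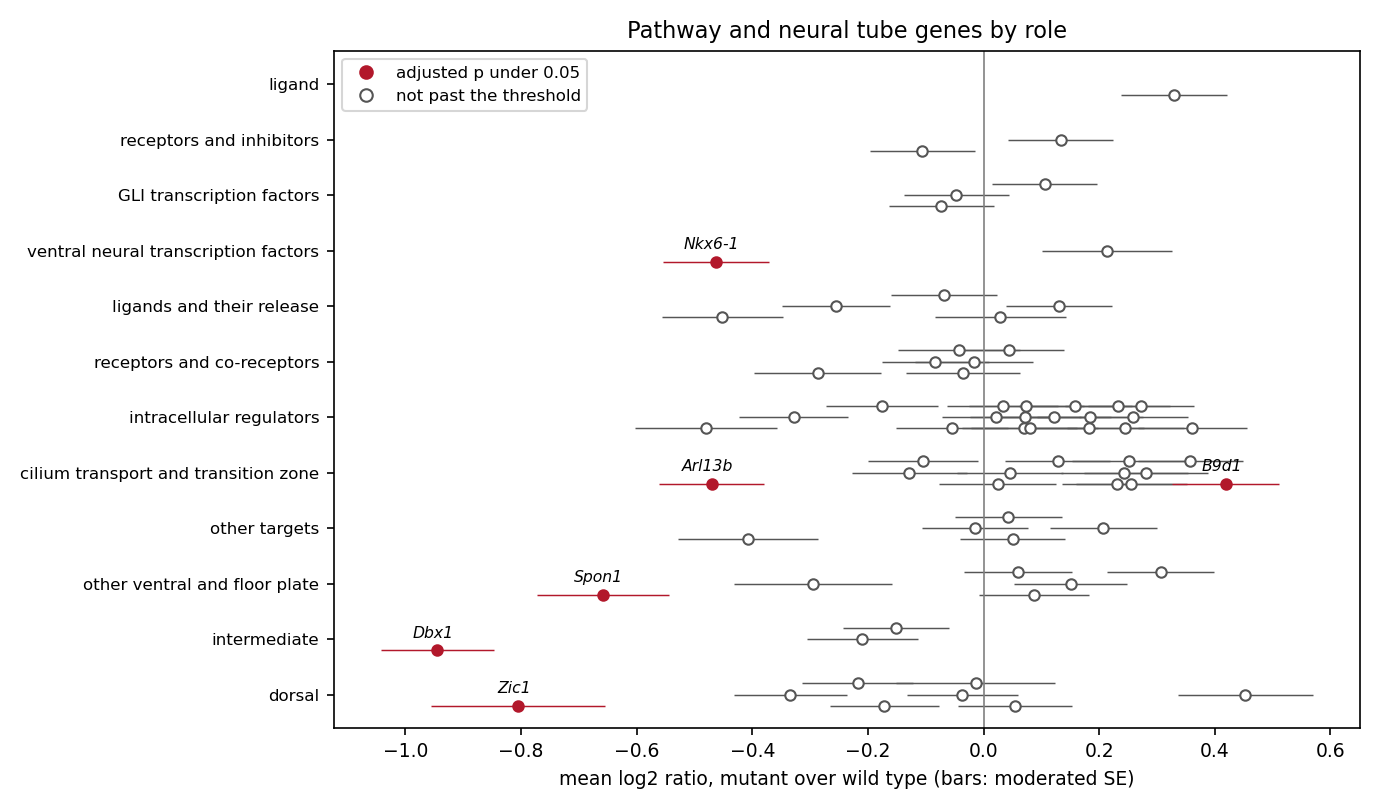
Mean log2 ratio of mutant over wild type (horizontal axis) of each tested gene, grouped by role, with the moderated standard error as a bar. The upper 4 roles are the 8 tested Hedgehog and ventral neural genes, and filled points passed an adjusted p of 0.05: Nkx6-1, Arl13b, B9d1, Spon1, Dbx1 and Zic1.

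Around Nkx6-1 in the neural tube, 22 further genes were listed by dorsoventral position and 17 were tested. None rose (0) and 3 fell, against 2.14% higher and 2.77% lower of all genes tested, and the median was -0.15. The list was drawn up with earlier results of these data known, so its count is not independent evidence of a direction. Dbx1, a homeodomain factor of the intermediate progenitors, fell by 0.95 on the log2 scale, with ratios of -1.10, -0.997, -0.91 and -0.77 (SD 0.14, adjusted p = 0.0054). Spon1, which encodes the floor plate protein F-spondin, gave -0.94, -0.77, -0.43 and -0.49, with a mean of -0.66 ± 0.28 (adjusted p = 0.0230). Zic1, a zinc finger factor of the dorsal neural tube and somites, gave -0.89, -1.40, -0.060 and -0.87, with a mean of -0.81 ± 0.48 (adjusted p = 0.0278). All 12 ratios of these 3 genes were negative. The genes were picked by their calls on these same arrays, so the signs add nothing to the test. Dbx1 lost its call only without the age_matched array with the mutant in Cy5 (-0.92, adjusted p = 0.0825), as did Spon1 (-0.62, adjusted p = 0.209). Zic1 lost it without that array (-0.93, adjusted p = 0.198) and without the stage_matched array with the mutant in Cy3 (-0.60, adjusted p = 0.0940). Without background correction, Spon1 (adjusted p = 0.0783) and Zic1 (0.0852) were lost and Dbx1 was kept (0.0443). The second Zic1 probe gave -0.86 (adjusted p = 0.0219) and the second Spon1 probe -0.43 (adjusted p = 0.0639).

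The remaining neural tube genes did not pass. Nkx6-2, the paralog of Nkx6-1, had -0.81, -0.36, -0.069 and 0.063, low in the age_matched and near 0 in the stage_matched set, with a mean of -0.29 ± 0.41 (adjusted p = 0.248). Mnx1, which marks motor neurons and also the notochord, had a mean of 0.31 ± 0.065 (adjusted p = 0.09999). On the dorsal side Olig3 stood at 0.45 ± 0.30 (adjusted p = 0.0681) and Pax3 at -0.33 ± 0.14 (adjusted p = 0.0925). Pax6, which is repressed ventrally by the signal, was at -0.15, and its other tested probe gave -0.38 (limma adjusted p = 0.105).

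Markers of other tissues in the whole-embryo RNA were measured beside these genes. Of 6 tested pan-neural genes 0 passed, and their summed intensity was 8651 to 11071 in mutant pools against 8265 to 9430 in wild-type pools. Of the node and notochord genes, sources of the ligand, 3 were tested and 0 passed: T at 0.41 ± 0.44, Chrd at 0.12 and Nog at 0.11, with a summed intensity of 1067 to 1767 in mutant pools and 1043 to 1294 in wild-type pools. Foxj1 was not above background, and Noto had no probe under that name. Of 5 definitive endoderm genes, 4 had a positive mean, with Sox17 at 0.30, Foxa1 at 0.25 and Hhex at 0.28 (adjusted p 0.138 to 0.186). Cer1 rose by 0.73 ± 0.47 (adjusted p = 0.0364) and Pyy fell by 0.96 (SD 0.27, adjusted p = 0.0087). The summed intensity of the 5 genes was 3029 to 3838 in mutant pools against 3753 to 4821 in wild-type pools. Pyy was the only 1 of the 5 with a negative mean, so the lower sum came from Pyy and not from the list as a whole. The Cer1 call was lost without the age_matched array with the mutant in Cy5 (adjusted p = 0.230), without its dye exchange (0.0587) and without the stage_matched array with the mutant in Cy5 (0.0635). The Pyy call was lost without the age_matched array with the mutant in Cy5 (adjusted p = 0.224).

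Among markers of other tissues, yolk sac, heart and blood genes were lower in mutant pools. Whether yolk sacs were kept with the embryos is not given in the sources used here. All 11 visceral endoderm and yolk sac genes fell, with a median of -1.04 and a summed intensity of 27684 to 31111 in mutant pools against 68219.7 to 80009.9 in wild-type pools. In the heart list 4 of 5 fell (45511 to 64303 in mutant pools, 108448 to 126456 in wild-type pools), and 3 of 4 tested genes of primitive blood and endothelium fell (3789.9 to 8887 in mutant pools, 15593 to 18719 in wild-type pools). Of all genes tested, 2.77% were called lower. The marker lists were chosen with earlier results of these data known, so their counts are not independent evidence. Without the age_matched array with the mutant in Cy5, the genes called lower were 4 of 11, 1 of 5 and 0 of 4 in these 3 lists, and without background correction 6 of 11, 1 of 5 and 0 of 4. Without the filter on dim probes 1 heart gene was called. The tested probes of Hnf4a, 1 of the 11, gave -0.61 and 0.045. The somite sum was 4678 to 5889 in mutant pools against 3829.6 to 4335 in wild-type pools, and 1 of 4, Meox1, rose (0.41, adjusted p = 0.0468), a call lost without any 1 of the 4 arrays (adjusted p 0.0534 to 0.270). The part of these tissues in the values of Nkx6-1, Dbx1, Spon1 and Zic1 was not tested.

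Btaf1 itself had a log2 ratio of 0.10 ± 0.031 (adjusted p = 0.555), and since the allele is a point mutation its probe says nothing on whether the labels hold. BTAF1 is an ATPase that takes the TATA-binding protein off DNA, so the promoter letters of these genes were read from RefSeq (GRCm38.p6), for which 8 of the 10 genes had an entry, with 10 promoters in all. Shh and Gli1 are named only. The motif TATAAA, searched on both strands over 250 bases before and 50 after the start, was in 2 of these 10 promoters (Olig2, 8 bases before the start, and the third of 3 Foxa2 starts, 208 bases before it), against 13.6% of 32851 promoters. The GLI core ACCACCC was in 1 of 10, Gli2, 205 bases before its start, against 4.61% of promoters, and the longer GACCACCCA, which contains that core, was in 0 of 10 against 0.253%. None of the 3 motifs was found in the promoter of Nkx6-1, nor in those of Nkx2-2, Hhip, Gli3 and Ptch1. The 250 bases before the start of Nkx6-1 are shown because it was the called gene.
Nkx6-1, chr5:101664712-101664961 (GRCm38.p6), minus strand: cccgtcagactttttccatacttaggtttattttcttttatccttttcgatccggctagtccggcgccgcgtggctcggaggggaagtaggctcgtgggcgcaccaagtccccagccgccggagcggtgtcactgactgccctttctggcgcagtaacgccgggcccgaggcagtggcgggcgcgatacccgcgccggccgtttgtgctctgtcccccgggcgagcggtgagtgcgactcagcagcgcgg
A match or its absence describes these letters alone.

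Over the whole array, 365 probes were called higher and 690 lower of 21940 tested. These counts were 10 and 13 without the age_matched array with the mutant in Cy5, 149 and 439 without its dye exchange, and 182 and 390 without the stage_matched array with the mutant in Cy5. Between 52.9% and 59.6% of the 43379 spots were well above background in a dye on an array, and 0 were saturated. The log2 ratios of mutant over wild type correlated across all tested probes with r = 0.16 between the dye-exchanged arrays of the age_matched set and 0.39 in the stage_matched set, and with 0.71 (mutant in Cy5) and 0.42 (mutant in Cy3) between arrays of like orientation from different sets. Probes are not independent replicates, and these are descriptions.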

How the data were processed

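Spot mean and local background intensity per dye were deposited as scanned, per the file headers (Feature Extraction 10.5.1.1; the submitters' processing notes name 9.5.3). The authors' deposited table holds the scanner's log10 ratio as mutant over wild type, as a comparison with the scanner column showed (largest difference 5.0e-06). Each of its columns has a median of 0, and 0 of them were left unassigned. All 4 arrays shared 1 slide and 1 scan, so no batch of that kind could differ between groups.

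Ratios on the log2 scale were made from the deposited intensities in limma 3.58.1 (R 4.3.3): normexp background correction with an offset of 50, loess within each array with control and marked spots at weight 0, sign turned where the mutant was in Cy3, and spots of a probe averaged. Levels per channel were additionally scaled by the Aquantile method. Of 41174 probes, 21940 were tested, being well above background in mutant on all 4 arrays or in wild type on all 4; 36 more passed but had a marked spot. Each gene is represented by its brightest tested probe. Mutant over wild type was tested two-sided in limma on the means of the 2 sets, with 1 residual and 7.12 prior degrees of freedom. Adjusted p values follow Benjamini and Hochberg over every tested probe; age_matched minus stage_matched was tested on 4 arrays with terms for set and dye, and its error is technical. The number of arrays limits the precision. Named besides the 10 genes are the called pathway and neural tube genes, and of each list up to 4 others with the largest ratios. Called marker genes are named in part and otherwise counted. Smo, Boc, Sufu, Pax6, Foxa1, Chrd, Nog, Dync2h1, Wnt3a and the untested Foxj1 and Noto are named outside this rule. The 10 genes and all lists were chosen with earlier results of these data known.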

Additional observations from a re-analysis of the deposited data

Results flagged for a closer look

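The age_matched and stage_matched sets differed, by limma on the 4 arrays, in 3 of 17 tested neural tube genes and 7 of 38 tested marker genes, and in 0 of the 8 tested Hedgehog and ventral neural genes. Over all genes tested the share was 2.11%. The lists were chosen with earlier results of these data known, so their counts are not independent evidence. Of these 10 differences, 0 passed without background correction, 0 with median centring in place of loess and 3 (Zic1, Myh6 and Hba-x) from the deposited log ratios. Values are differences of log2 ratios of mutant over wild type, age_matched minus stage_matched, with a standard error near 0.17 that holds only the spread between dye-exchanged arrays. In the neural tube list these were Nkx6-2 at -0.58 (adjusted p = 0.0441) and Zic1 at -0.68 (adjusted p = 0.0101), and, in the other direction, Wnt3a at 0.59 (adjusted p = 0.0398), a dorsal signal named after its value was seen. T, the notochord and primitive streak gene, differed by 0.62 (adjusted p = 0.0268) and Cer1, an anterior endoderm gene, by 0.67 (adjusted p = 0.0125), both with the higher ratio in the age_matched set. The heart genes Tnnt2 at -0.64 (adjusted p = 0.0193), Myl7 at -0.67 (adjusted p = 0.0138) and Myh6 at -1.11 (adjusted p = 1.3e-06) had lower ratios in the age_matched set, as had the embryonic globins Hba-x at -1.06 (adjusted p = 4.2e-06) and Hbb-bh1 at -0.99 (adjusted p = 2.3e-05). Embryos of that set could differ in somite number, and the part of this in the differences was not tested.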

How the results depend on the processing

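Over 11 other settings, of which the fit of 4 arrays as independent was added after seeing the data, Nkx6-1 stayed negative (-0.64 to -0.28, adjusted p 0.0151 to 0.255) and Shh positive (0.22 to 0.44, adjusted p 0.0390 to 0.509). The 365 higher and 690 lower probes became 20 and 42 without background correction, 120 and 824 with median centring (12.7% of calls higher, against 34.6%), 209 and 386 without the filter on dim probes, 747 and 1077 from the deposited log ratios, and 733 and 1216 with 4 independent arrays; leave-one-out ranges were 10 to 394 and 13 to 814. Of the Hedgehog and ventral neural genes, 1 was higher (Shh) with 4 independent arrays and with the mean over a gene's probes, where fewer tests are adjusted for, and 0 were lower without background correction; leave-one-out ranges were 0 to 1 for both. Pathway genes higher numbered 0 without background correction, with median centring and without the filter, and 2 with 4 independent arrays (leave-one-out 0 to 0); pathway genes lower numbered 0 without background correction, 3 with median centring, 2 with both channels above background, 3 from the deposited ratios and 3 with 4 independent arrays (leave-one-out 0 to 1). The 352 positive and 155 negative set differences over all probes became 0 and 0 without background correction, 1 and 0 with median centring, and 71 and 79 from the deposited ratios. The cause was not tested. The calls of B9d1 were also lost with median centring (adjusted p = 0.136), without the filter (0.0567) and from the deposited ratios (0.0517), that of Arl13b with the mean over its probes (0.0546), that of Zic1 without the filter (0.0691), that of Cer1 without background correction (0.106) and without the filter (0.0808), that of Pyy without background correction (0.0547), and that of Meox1 without background correction (0.0781), with median centring (0.175), without the filter (0.0560) and from the deposited ratios (0.0666). Directions turned for log2 ratios that had not passed: Gli2 was 0.026 from the deposited ratios, and leaving out 1 array gave -0.16 to 0.064 for Gli1, -0.096 to 0.31 for Gli3 and -0.0052 to 0.43 for Foxa2. Set differences turned without background correction (Hhip -0.0095, Gli1 0.0069), with median centring (Shh -0.12, Hhip -0.025, Gli2 -0.21, Gli3 -0.18, Nkx6-1 -0.037) and from the deposited ratios (Hhip -0.075, Gli1 0.0043, Gli2 -0.12, Nkx6-1 -0.060). The fit with the set as a random block was not run, because its correlation cannot be estimated from 4 arrays. No paired analysis was possible because a block by replicate number would stand for the dye orientation here; mutant and wild type already share each array, so every ratio is taken within a pair of pools.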
